A study of Mus musculus with 4 samples.

Results

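CTCF occupancy was compared between the libraries of 2 mouse embryonic stem cell (mESC) lines that keep a shortened array of CTCF binding sites (CBS) inside the HoxB cluster, out of 4 libraries in the series. The genotype Ins(CBS5-10):Del(CBS8-10) leaves the forward sites CBS5 to CBS7 and is called the forward library below. The genotype that joins Ins(CBS5-10) with Inv(CBS5-10) and then Del(CBS7-10) leaves the inverted sites CBS5 and CBS6 and is called the inverted library. In all 4 lines the array sits on a chromosome 11 named Del(i9-13), opposite a chromosome 11 named HoxB Del, so no library holds an unedited HoxB cluster. The other two libraries carry the complete array, uninverted (Ins(CBS5-10) alone) or inverted (Ins(CBS5-10) with Inv(CBS5-10)), and serve here only to show where else a peak was found. Both libraries were chosen by genotype label, not by a measured value. Each genotype is 1 library, and the labels do not say how many clones or cultures it stands for. No difference below has a replicate check or a test, and a difference between these libraries cannot be told apart from a difference between genotypes.

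CTCF is a zinc-finger protein that binds a long directional motif, blocks contacts between enhancers and promoters at insulators, and halts the loop-extruding complex cohesin mostly when cohesin meets the motif from its N-terminal side. For that reason the orientation of a CTCF site, and not only its presence, is studied in loop formation. The Hox genes are transcription factor genes that pattern the body axis and switch on in the order in which they lie on the chromosome. Hoxb13 lies apart from the rest of HoxB, beyond Hoxb9, with a row of CTCF sites in the interval between them. CUT&RUN maps a bound protein by cutting the DNA around it with an antibody-guided nuclease, and a peak's summit is the base at which the released fragments pile up highest.

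Promoter sequences are given first, to show what the letters under a shared peak and under a peak of 1 library looked like. No sequence of the modified chromosomes was used here, so the array sites themselves are not printed. The 250 bases before a transcript start come from RefSeq, build GRCm38.p6, and run 5′ to 3′ on the gene's strand. Capitals mark CC, 3 bases of any kind, AG, 2 of any kind and GGC, or its reverse complement. This is a core of the known CTCF motif and was adopted after the Ttll6 window had been seen. A narrower pattern, CCA, 2 bases of any kind, AG, 2 of any kind and GGC, on either strand, fixes 1 base more, and every match to it also matches the wider one. The Ttll6 window, chr11:96133536-96133785 on the plus strand, holds a HoxB-flank summit of both libraries, 104 bases (forward) and 110 bases (inverted) before the start, and only the wider pattern. The others are the strongest shared summit, the strongest forward-only summit and the strongest inverted-only summit by deposited −log10 q (that of the inverted library for the shared one), among windows of protein-coding genes with the narrower pattern, 1 chromosome not considered: Nectin2, a cell adhesion molecule, at chr7:19749574-19749823, Kctd8, a subunit of GABA-B receptors, at chr5:69341710-69341959, and Tsfm, a mitochondrial translation elongation factor, at chr10:127030815-127031064, all on the minus strand.
Ttll6: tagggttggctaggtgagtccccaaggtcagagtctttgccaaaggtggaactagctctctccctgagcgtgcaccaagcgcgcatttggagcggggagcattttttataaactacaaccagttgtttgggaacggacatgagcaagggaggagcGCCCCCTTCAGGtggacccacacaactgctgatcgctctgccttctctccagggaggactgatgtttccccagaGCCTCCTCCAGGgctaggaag
Nectin2: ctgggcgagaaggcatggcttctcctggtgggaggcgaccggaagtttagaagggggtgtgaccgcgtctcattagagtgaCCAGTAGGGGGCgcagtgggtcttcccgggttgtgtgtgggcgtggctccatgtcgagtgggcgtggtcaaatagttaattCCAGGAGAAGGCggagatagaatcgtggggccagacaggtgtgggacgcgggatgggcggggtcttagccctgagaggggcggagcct
Kctd8: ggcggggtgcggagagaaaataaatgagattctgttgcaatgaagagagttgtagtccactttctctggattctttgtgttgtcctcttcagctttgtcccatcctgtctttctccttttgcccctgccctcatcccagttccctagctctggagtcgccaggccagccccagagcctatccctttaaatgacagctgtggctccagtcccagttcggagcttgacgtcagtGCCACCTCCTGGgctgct
Tsfm: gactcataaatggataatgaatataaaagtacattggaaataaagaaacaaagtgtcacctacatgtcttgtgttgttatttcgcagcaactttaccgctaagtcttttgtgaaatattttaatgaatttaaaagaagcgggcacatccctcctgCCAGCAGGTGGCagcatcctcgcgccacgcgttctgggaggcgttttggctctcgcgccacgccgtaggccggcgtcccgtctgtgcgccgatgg
At Nectin2 the recovered pileup, the height of the stack at the summit, was 133 in the forward and 539 in the inverted library. The Kctd8 summit had a pileup of 10 and the Tsfm summit one of 88. Over windows of 300 bases around all promoters off chromosome 11, the narrower pattern was found in 2.37% of 30528 windows and the wider in 8.53%. Windows with a shared summit held the narrower pattern in 9.17% of 2738 cases (95% Wilson interval 8.14% to 10.3%). Windows with a forward-only peak held it in 2.28% of 307 (1.11% to 4.63%), and windows with an inverted-only peak in 2.77% of 1807 (2.11% to 3.63%). Windows with no summit in either list held it in 1.60%. With the wider pattern the shares were 24.9%, 12.1%, 12.7% and 6.38% in the same order. The pattern was therefore more frequent under shared than under unshared promoter peaks, and the unshared peaks of both libraries had nearly the same share. A match is a description of letters and not a mapped site.

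The forward list held 74555 peaks and the inverted list 99177, of which 66816 and 88735 lay off chromosome 11. The median −log10 q was 12.2 against 24.1, the median pileup 17 against 35, and the genome background 0.553 against 1.33. The depth of reads is not stated in these sources, and all these values were higher in the inverted library. Pileups are therefore set against the median ratio at 51343 shared autosomal summits, which was 3.4 (log2 1.77), and such values are called centred. Of the 10 stem cell genes listed, among them Pou5f1, Sox2 and Nanog, 9 had a summit within 10 kb in both lists. So had all 6 neural genes, 5 of 6 feeder fibroblast genes and 7 of 8 mesoderm and endoderm genes off chromosome 11. The share over all genes off chromosome 11 was 61%, and peaks near genes did not type the cells. In such bulk samples, fewer cells with a bound site and less binding per cell cannot be told apart.

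In the 10244 bp between the end of Hoxb13 and the start of Hoxb9, where the array lies, the forward library had 3 summits and the inverted library 2. These numbers equal the numbers of sites that the genotypes leave. A count of summits need not equal a count of sites, however. The complete inverted array, whose label keeps CBS5 to CBS10, had summits only at 96200093, 96200615 and 96201664. No label or list names the CBS of a summit, so any assignment below is inferred from the deletions. The forward summits lay at chr11 positions 96200623, 96201261 and 96201658 of the modified mm10 chromosome, 4.01, 4.65 and 5.05 kb from the end of Hoxb13. Their pileups were 30 (95% Poisson interval 20.2 to 42.8), 45 (32.8 to 60.2) and 33 (22.7 to 46.3). The inverted summits lay at 96201276 and 96201653, 15 and 5 bp from the middle and the last forward summit, with pileups of 107 (87.7 to 129) and 95 (76.9 to 116). All intervals given for pileups, ratios and shares cover counting error only. The list coordinates are those of the uninverted array in every library, so a summit of the inverted array is given at its place in the uninverted one. Below, nearest to Hoxb13 or to Hoxb9 means in these coordinates, and on an inverted array the order is reversed.

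The 3 forward summits came as 3 separate peaks of 279, 297 and 297 bp, spaced 638 and 397 bp apart. The inverted pair, 377 bp apart, lay inside 1 peak of 713 bp. The deposited −log10 q was 17.9, 34.5 and 21.2 in the forward library and 94.5 and 79.5 in the inverted one. Ranked within its own list, each stood at the 61.4th, 82.1st and 66.8th percentile of −log10 q in the forward list and the 76.3rd and 73.0th in the inverted list. The array summits were thus mid-range to upper peaks in both lists, with the middle forward summit the highest of the 5 by rank.

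The forward summit at 96200623, the one nearest to Hoxb13, had no counterpart in the inverted list. On chromosome 11 outside HoxB, 16.9% of all forward summits lacked one, but among those of its own class, −log10 q of 10 to 20, only 3.3% did (34 of 1031). In the complete uninverted array a summit lay at 96200618 with a pileup of 112, and in the complete inverted array at 96200615 with one of 41. The position was therefore occupied in 3 of 4 libraries. It lacked a summit only in the inverted library compared here, whose label alone deletes CBS7. The 3 further summits of the complete array on the Hoxb13 side, at 96199065, 96199594 and 96200095 with pileups of 54, 58 and 89, had no counterpart in either shortened array. The labels of both shortened arrays delete CBS8 to CBS10, so these absences too were laid down by design. If each array summit is a CBS, the deletions place CBS7 at 96200623. CBS5 and CBS6 are then left for the positions that both shortened arrays share. If the numbering runs on in the same direction, CBS6 lies at 96201261 and CBS5 at 96201658.

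At the shared array positions the pileup ratio of inverted over forward was, on the log2 scale, 1.25 (0.73 to 1.79) and 1.53 (0.94 to 2.14). Centred on the autosomal median these became −0.52 (−1.03 to 0.02) and −0.24 (−0.83 to 0.38). They stood at the 27.4th and 38.3rd percentile of shared autosomal summits. Both values lay below the median and both intervals held 0. The side depends on the measure. For the deposited fold, pileup over local background with 1 added to each, the median log2 ratio was 0.55. The folds, forward before inverted, were 11.8 and 16.9 at the middle site, near that median. At the last site they were 8.76 and 15.1, above it. Past 2-fold from the median in either direction lay 18.9% of shared autosomal summits and 0 of these 2. Centred values also varied with forward pileup. Among 11532 shared autosomal summits with a forward pileup of 40 to 79, as at the middle site, the median was 0.18. Their lower quartile was −0.16. The middle site, at −0.52, lay below that quartile, though its interval held it. Among 16692 with 20 to 39, as at the last site, the quartiles were −0.45 and 0.56, and the last site lay between them.

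A comparison within a library needs no scaling between libraries, and the strong peak between Hoxb9 and Hoxb8 served as its reference. That peak, at 96214485, was called in both lists with pileups of 41 and 195 and a −log10 q of 44.3 and 221. The middle array summit reached 1.10 times it in the forward library (0.70 to 1.72) and 0.55 times it in the inverted library (0.43 to 0.70). The summit nearest to Hoxb9 in list coordinates reached 0.805 (0.493 to 1.305) and 0.487 (0.377 to 0.626), and the forward-only summit 0.732 (0.441 to 1.201). By pileup, both shared array sites stood lower relative to this neighbour in the inverted library, and the intervals overlapped at the site nearest to Hoxb9. On the deposited fold, the ratio to the same neighbour was 0.629 and 0.551 at the middle site, forward before inverted, and 0.467 and 0.493 at the site nearest to Hoxb9, so there the direction turned. In the complete uninverted array the pileup ratios were 0.689 (0.522 to 0.907) and 0.652 (0.491 to 0.861), with intervals that overlapped those of both libraries. In the complete inverted array the middle site had no summit, and the site nearest to Hoxb9 stood at 0.250 (0.138 to 0.430).

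The choice of neighbour bears on this. The Hoxb9 to Hoxb8 peak itself had a centred log2 of 0.48, so a ratio to it holds that shift beside the array's own. Of the 10 shared HoxB positions outside the array, 8 lay above the autosomal median. Set against each of the 10 shared HoxB positions outside the array, the middle array site was lower in the inverted library in 9 cases, with differences from −2.07 to 0.83. The site nearest to Hoxb9 was lower in 9 of 10 cases, from −1.80 to 1.11. The exception in both was a weak position at Hoxb5. The 10 differences of a site reuse its 1 array value, and both sites use the same positions, so they are not separate checks. Of these positions, 5 lie in the Ttll6 to Hoxb13 stretch, which is present on both copies of chromosome 11. The local background also differed: at the array it was 5.21 to 5.32 times the genome background in the forward library and 4.04 to 4.07 times in the inverted one. At the Hoxb9 to Hoxb8 peak it was 2.24 and 4.07 times. The deposited fold, the pileup over this background with 1 added to each, was 7.87, 11.8 and 8.76 at the forward array summits and 16.9 and 15.1 at the inverted ones. At the neighbouring peak the fold was 18.8 and 30.6. The part of the background in these ratios was not tested.

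**Figure D1:**
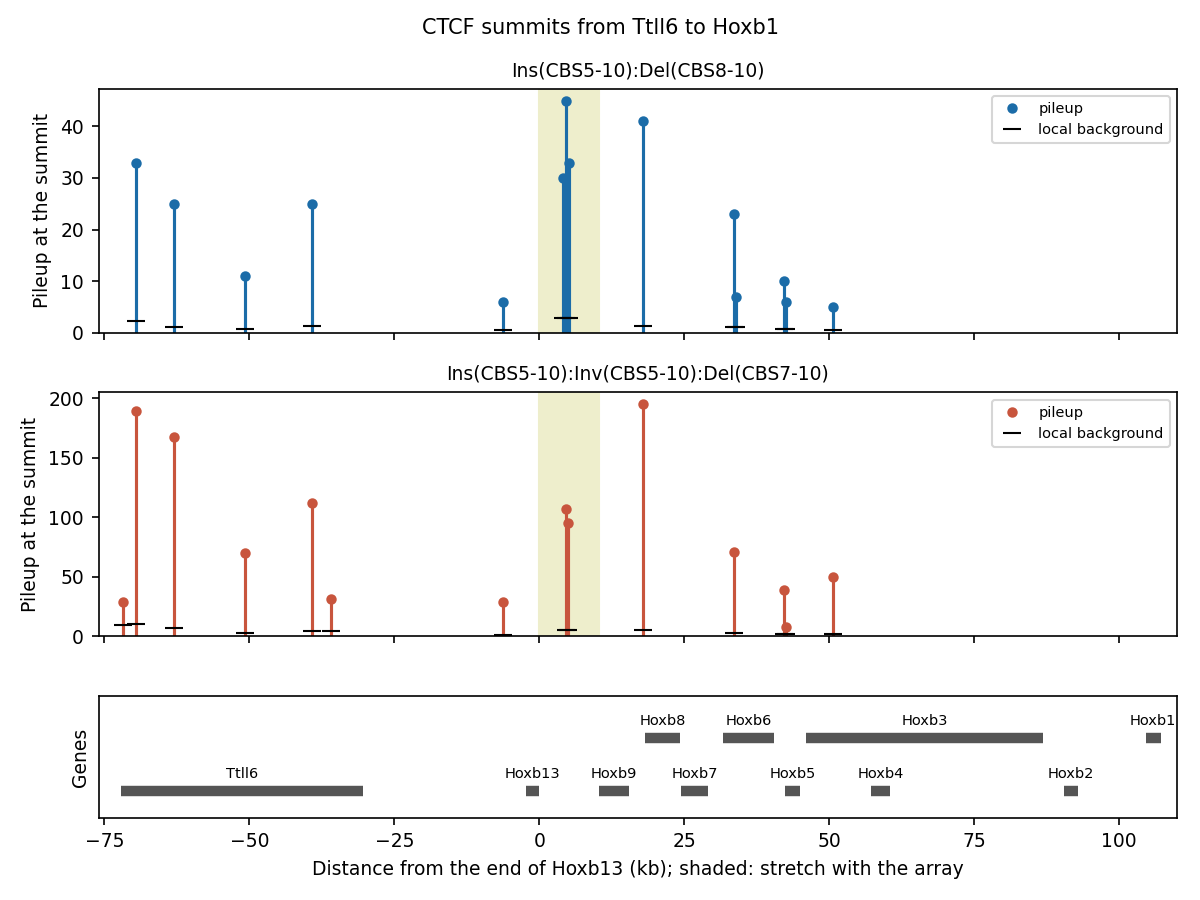
Pileup at each CTCF summit (vertical axis, a separate scale per panel) against distance from the end of Hoxb13 in kb, with the local background as a short black bar and genes at the bottom. The forward library shows 3 summits in the shaded array stretch, up to a pileup of 45, and the inverted library 2, up to 107, where the peak beside Hoxb8 reaches 41 and 195.

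**Figure D2:**
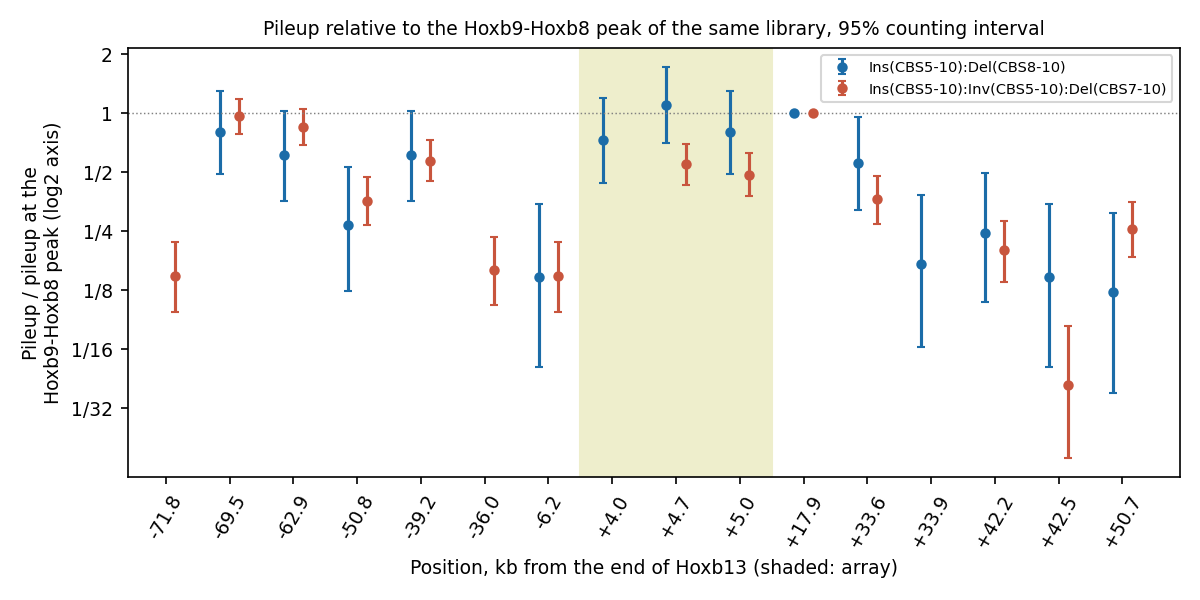
Pileup at each HoxB position divided by that at the Hoxb9 to Hoxb8 peak of the same library (log2 axis), with 95% counting intervals; that peak itself is 1 by construction. In the shaded array the middle site stands at 1.10 in the forward and 0.55 in the inverted library, while at the 4 shared positions within Ttll6 the intervals of the libraries overlap.

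Outside the array, from Ttll6 to Hoxb1, the forward library had 11 summits and the inverted library 12, and 10 of each were shared. On the Hoxb13 side lay 5 and 7 summits, and from Hoxb9 to Hoxb1 6 and 5. Ttll6, the gene of a tubulin polyglutamylase that flanks the cluster, held 4 shared positions. Their pileups were 33 and 189 at 96127128, 25 and 167 at 96133682, 11 and 70 at 96145794, and 25 and 112 at 96157377, forward before inverted. Centred, these were 0.75, 0.97, 0.90 and 0.40 on the log2 scale, all above the autosomal median. The peak on the far side of Hoxb13, at −6.20 kb from its end, had pileups of 6 and 29, at the 11.1th and the 52.3rd percentile of its list, and a centred log2 of 0.51 (−0.79 to 2.07).

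The Ttll6 to Hoxb13 stretch is present on both copies of chromosome 11, and a fragment from it could be assigned to either. On the Del copy the same stretch held 6 forward and 8 inverted peaks, with 6 of each shared. The strongest by pileup lay at 96133684 in the forward list, with 30, and at 96127129 in the inverted list, with 216. Values for Ttll6 on the array chromosome are thus not those of 1 copy alone, whereas the array and the genes from Hoxb9 to Hoxb1 lay on 1 copy in these lists.

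From Hoxb9 to Hoxb1 the shared positions moved in both directions around the median. The Hoxb9 to Hoxb8 peak had a centred log2 of 0.48 (−0.01 to 1.01). The position within Hoxb6 and the antisense RNA gene Hoxb5os had pileups of 23 and 71 and a centred log2 of −0.14. The position within Hoxb5os had 10 and 39, with 0.20, and the one at Hoxb5 had 6 and 8, with −1.35 (−3.07 to 0.46). The summits of the last pair lay 96 bp apart, close to the 100 bp limit for a match, and they no longer matched at 50 bp. Hoxb4, Hoxb2 and Hoxb1 held no summit in either list.

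The largest centred value in HoxB lay within the annotated span of Hoxb3, which runs across Hoxb4. Its summit, at 96247291 in the forward list, lay between Hoxb5 and Hoxb4. The pileup was 5 in the forward library, where the summit passed the q threshold narrowly with a −log10 q of 2.44, and 50 in the inverted library, with a −log10 q of 54.1. Its centred log2 was 1.56 (0.24 to 3.24), at the 99.1st percentile of shared autosomal summits, and its rank within the list went from the 4.45th to the 65.8th percentile. A summit with a forward pileup under 10 is by its size more variable: among 7312 such shared autosomal summits, the middle 90% of centred values ran from −1.44 to 1.35. The Hoxb3 value lay above that range.

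Over the 10 shared positions outside the array, 8 lay above the autosomal median and 2 below, with a median of 0.50, while the median of chromosome 11 was 0.10. Past 2-fold above the median lay 1 of 10, against 5.48% of autosomal summits, and past 2-fold below it 1 of 10, against 13.5%. These were the positions at Hoxb3 and Hoxb5. With 10 positions these counts are near the background.

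A summit without a counterpart was found at 1 position in the forward and 2 in the inverted library within this stretch outside the array. The forward-only summit lay within Hoxb6 at 96230482, with a pileup of 7 and a −log10 q of 2.47, a class in which 51.1% of forward summits had none in the inverted list. The inverted-only summits both lay within Ttll6. The one at 96124847 had a pileup of 29 and a −log10 q of 5.16, where 74.8% of inverted summits of the class lacked a forward one. The one at 96160627 had a pileup of 31 and a −log10 q of 14.2, where 57.6% did. At the latter place the forward list had a summit on the Del copy, at 96160619 with a pileup of 13. All of them lay in classes where such absences were common.

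Beyond Hoxb1 the first summit of the inverted list lay at 96310475, with a pileup of 35 and a −log10 q of 34.9, and the forward list had none there. On the Del copy the inverted list had the same site, by the offset between the chromosomes, with a pileup of 36, and the forward list again had none. The stretch beyond Hoxb1 is present on both copies and a fragment could be assigned to either, so these entries are not separate observations. The lists of both complete arrays also had a summit at this site. On chromosome 11 outside HoxB, 39.1% of inverted summits lacked a forward one, and 29.9% of those of the same class (309 of 1033). The next shared position, at 96347657, had pileups of 23 and 72.

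Off chromosome 11, 53023 of the 66816 forward summits had an inverted summit within 100 bp, 79.4% (79.0% to 79.7%), and 20.6% did not. Of the 88735 inverted summits 53021 had a forward one, 59.8% (59.4% to 60.1%), and 40.2% did not. Shared summits were placed closely, with a median distance of 9 bp and 78.3% within 20 bp. The share rose with the strength of the peak in both directions. Of forward summits with a −log10 q under 5, 40.0% were shared, of those of 10 to 20, 94.1%, and of those of 20 to 50, 99.5%. Of inverted summits in the same classes, 12.6%, 41.8% and 69.4% were shared, and at 100 or more 99.4%.

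**Figure D3:**
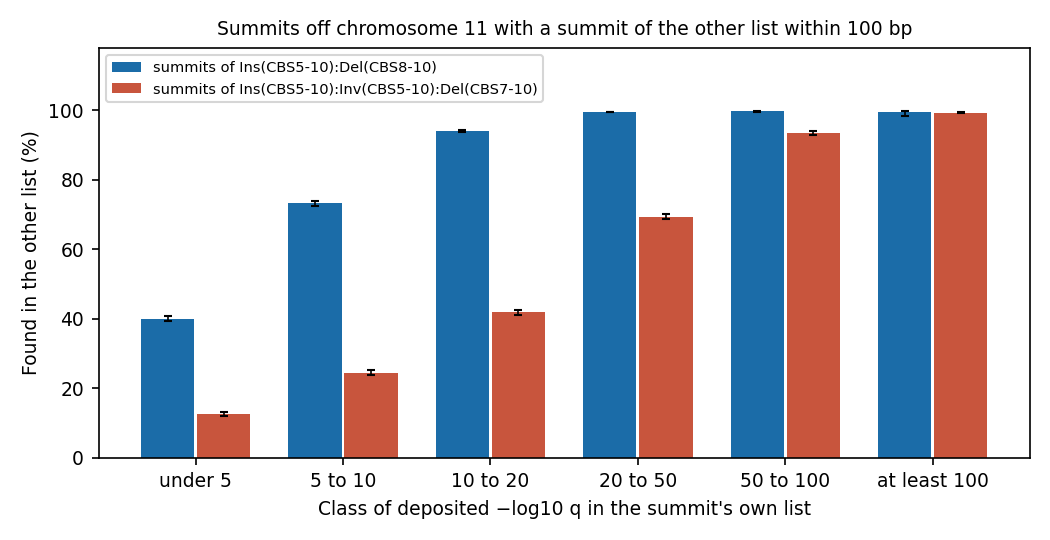
Share of summits off chromosome 11 found in the other list (vertical axis, %, with 95% Wilson intervals) by class of deposited −log10 q in the summit's own list. Forward summits reach 94.1% at 10 to 20, where inverted summits stand at 41.8%, and both exceed 99% at 100 or more.

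**Figure D4:**
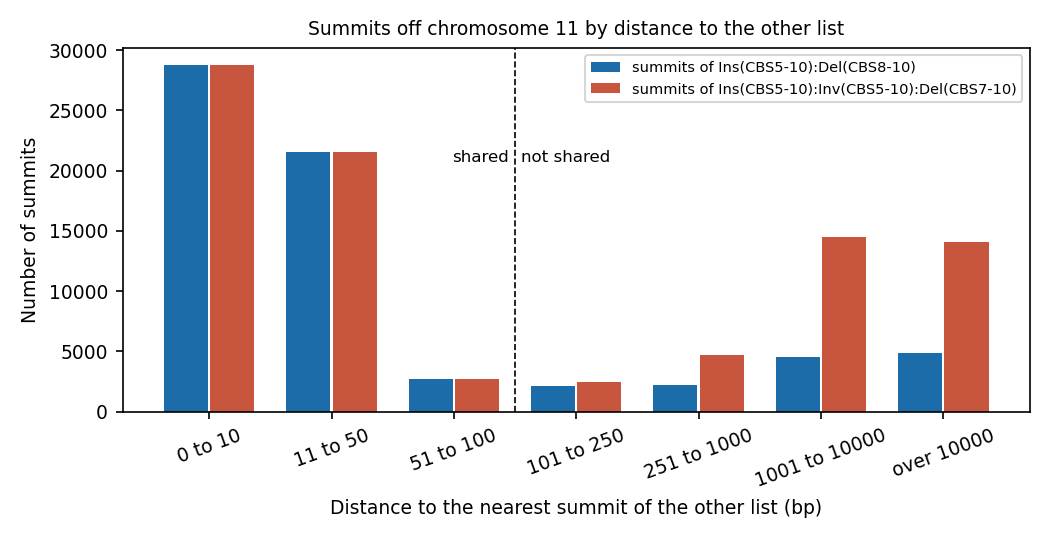
Number of summits off chromosome 11 (vertical axis) by distance in bp to the nearest summit of the other list, with the 100 bp limit as a dashed line. Of the inverted summits 14103 lie over 10 kb from any forward summit, against 4898 forward summits so far from an inverted one.

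Unshared summits were of 2 kinds. In the forward list 3222 of 13793, 23.4%, lay in a peak that overlapped a peak of the inverted list, at a median of 224 bp from its summit, and 10571 had no overlapping peak. In the inverted list 4977 of 35714, 13.9%, overlapped, and 30737 did not. Peaks without overlap were weak, with a median pileup of 7 and a −log10 q of 3.93 in the forward list and of 15 and 7.65 in the inverted list. Shared summits had median pileups of 23 and 79. The complete arrays' lists also tended to lack them: 67.6% of the forward and 51.5% of the inverted peaks without overlap were in neither, against 3.78% and 3.61% of shared summits.

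Strong peaks without overlap were few in the forward list. At a −log10 q of 20 or more there were 26 of 24076 summits, and at 50 or more there were 0 of 5477. All 26 were also in the list of the complete uninverted array and 4 in that of the complete inverted array. Among all 18599 forward summits with a −log10 q of 20 to 50, 99.7% were in the former list and 95.4% in the latter. In the inverted list there were 4487 of 47690 at 20 or more and 535 of 31634 at 50 or more. Of these 535, 450 were in the list of the complete uninverted array, 476 in that of the complete inverted one, and 16 in neither. Of the 4487, 2994 were in the former list and 2793 in the latter, and among all 16056 inverted summits with a −log10 q of 20 to 50, 86.1% and 64.5% were. Of the 535, 43 were in the uninverted array's list alone and 69 in the inverted array's list alone.

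Place relative to genes differed little. Within genes lay 51.4% of shared summits, 51.0% of forward and 51.2% of inverted peaks without overlap. Within 1 kb of a transcript start lay 8.56% of shared summits, 6.14% (5.70% to 6.61%) of forward peaks without overlap and 9.36% (9.04% to 9.69%) of inverted ones. Unshared summits in overlapping peaks were at starts more often, 12.0% and 13.8%. Over the 18 autosomes other than chromosome 11 the unshared share ran from 18.1% (chromosome 19) to 24.5% (chromosome 13) in the forward list and from 38.2% (chromosome 7) to 44.0% (chromosome 13) in the inverted one.

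The 10 strongest unshared summits of each list all lay in a peak that the other list also had, 117 to 225 bp from its summit. Genes within 10 kb were Fgfbp3, Cxcl17, Tfeb, Azin2, Ehmt2, Rc3h1 and the gene model Gm45871 in the forward list, and Gm45871, Trmt12, Gstm2, Mcoln2, Macf1 and Ehmt2 in the inverted list. Tfeb encodes a transcription factor of lysosomal genes, and Ehmt2 a histone H3 lysine methyltransferase. At Ehmt2 the forward summit had a pileup of 89 and the inverted one of 293, 180 bp apart in overlapping peaks. These are overlapping peaks of both lists with summits at different places, not peaks present in 1 library. Whether such peaks hold 1 site or several was not tested.

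Peaks without overlap that stood highest were named after their values were seen. In the forward list the strongest was at chr2 position 59424934, with a pileup of 35 and a −log10 q of 32.3, and was 59.7 kb from Dapl1. Peaks within genes were at Hook3, which encodes a microtubule-linking adaptor, with a pileup of 35, and at Cd36, which encodes a fatty acid receptor, with one of 23. In the inverted list the strongest was at chr3 position 104680849, with a pileup of 245 and a −log10 q of 221, 22.4 kb from the lactate transporter gene Slc16a1. It was in neither of the other lists. Peaks within Cracr2a, Man1c1 and Oas1f had pileups of 214, 154 and 195 and were in the lists of both complete arrays.

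Among shared summits the pileups of the libraries went together, with a Spearman correlation of 0.855 and a Pearson correlation of log2 pileups of 0.842 over 51343 summits that share 2 libraries, given as descriptions. The middle 90% of centred values ran from −1.50 to 1.03. The autosomal medians lay between −0.11 (chromosome 16) and 0.08 (chromosome 5), and those of the array chromosome and the Del copy at 0.10 and 0.11. Chromosome 11 was thus slightly above the range of the other autosomes.

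**Figure D5:**
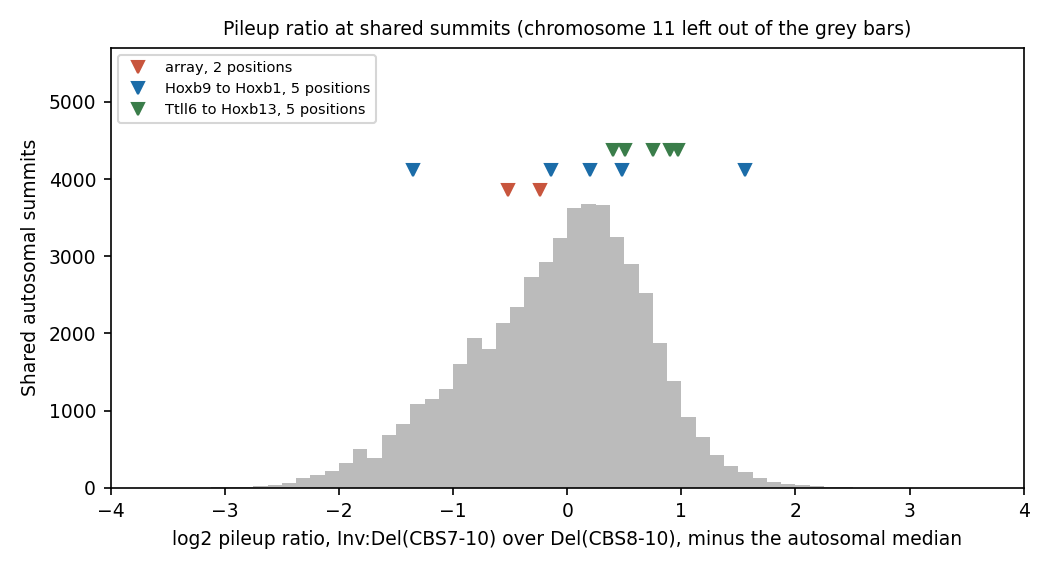
Number of shared autosomal summits (vertical axis) by log2 pileup ratio of the inverted over the forward library minus its median, with HoxB positions as triangles. The array positions at −0.52 and −0.24 lie left of 0, all 5 of Ttll6 to Hoxb13 lie right of it, and Hoxb5 and Hoxb3 mark the ends at −1.35 and 1.56.

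Some shared summits changed rank within their list much more than the median shift of 6.98 percentiles. The largest rise in the inverted list was at Lrp5, which encodes a Wnt co-receptor, from a pileup of 6 to 266 and from the 1.75th to the 97.9th percentile. The next rises were within Mad1l1, with pileups of 6 and 132, and at summits outside protein-coding genes. The nearest protein-coding genes of the latter were Sis (20.2 kb away), Zfp954 (53.6 kb) and Esp38 (103 kb). Their pileups were 4 and 116, 8 and 156, and 41 and 699. The Esp38 summit had a high local background, 17.2 and 92.4, where the genome background was 0.553 and 1.33. The largest fall was at the olfactory receptor gene Olfr15, from 37 to 10, where the rank fell by 72.2 percentiles from the 83.2nd, although the inverted library had the higher median pileup. The next falls lay outside protein-coding genes. Their nearest protein-coding genes were Fabp5 (51.7 kb away), Rchy1 (87.2 kb), 4931429L15Rik (243 kb) and Atrnl1 (33.0 kb). Their pileups were 25 and 10, 30 and 13, 29 and 12, and 24 and 11. Such summits were chosen as extremes of the distribution, so their size is a description. At Lrp5, Sis and Mad1l1 the matched summits lay 51 to 100 bp apart, against a median of 9 bp over shared summits. At the other summits named here they lay within 50 bp. Whether a matched pair is 1 site was not tested.

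The other Hox clusters carried no edit in the labels and gave a comparison for HoxB. HoxA had 7 forward and 8 inverted summits with 7 shared, HoxC 4 and 5 with 4 shared, and HoxD 8 and 7 with 7 shared. Their median centred log2 values were −0.27, 0.25 and 0.05. Within 10 kb, 61% of all 46852 genes off chromosome 11 had a summit in both lists, 2.89% in the forward list only and 7.98% in the inverted list only. Hoxa2 had one only in the inverted list, a weak summit with a pileup of 9. All 9 HoxC genes had one in both lists, as had 9 of 10 HoxD genes, and Hoxd1 had none in either. The strongest inverted summits reached a pileup of 158 in HoxA, 225 in HoxC and 162 in HoxD, against 52, 39 and 62 in the forward library. HoxB, with 10 shared of 11 and 12 outside the array, had 1 forward and 2 inverted summits unshared. The 5 shared positions from Hoxb9 to Hoxb1, taken without Ttll6, had a median of 0.20, between those of HoxD and HoxC.

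Of the 14 genes for CTCF and cohesin or its regulators, 12 had a summit in both lists, beside 61% of all genes off chromosome 11. Smc1a, which encodes a core cohesin subunit, had one in the forward list only, with a pileup of 8, and Rad21, which encodes the subunit that closes the cohesin ring, in the inverted list only, with one of 20. Ctcf itself had summits in both, the strongest with pileups of 47 and 84. Of the marker genes of other cell types, Twist1 and Gata6 had a summit in the forward list only and the stem cell gene Zfp42 in the inverted list only, with pileups of 7, 6 and 19. These peaks had pileups of 20 or less.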

How the data were processed

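CTCF CUT&RUN was made from mESC of 4 genotypes, and 1 peak list per library was used. Per the submitters' processing notes, the tools were MACS2 2.2.7.1, bedtools 2.30.0, Picard, Bowtie2 2.4.5 and cutadapt 4.1, and the build mm10. Their settings, the read filters and a control were not given in the sources used here. Scores, as deposited, are the −log10 q times 10, made whole. The deposited fold compares pileup and local background at the summit. The columns of −log10 p-value and −log10 q-value were taken as the authors deposited them. The lowest −log10 q was 1.30 and 1.31.

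Whole-number pileups and backgrounds were recovered from the fold, taken as (pileup + 1)/(background + 1), and the Poisson −log10 p (tolerance 0.001). A solution was found for 100% of peaks, and this assumes the usual formula of the peak caller. The recovery and the matching were tested on simulated data. Summits (start plus summit offset, counted from 1) within 100 bp counted as shared. The chromosome 11 names of the files mark an array copy and a Del copy; off chromosome 11 means without both. Gene places come from the RefSeq table of GRCm38.p6, with an offset of 64.475 kb after HoxB on the array copy found by sliding summits along gene ends. Python 3.11.15, NumPy 2.4.6, pandas 2.3.3, SciPy 1.17.1 and Matplotlib 3.10.9 were used.

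Named were all peaks from Ttll6 to Hoxb1, genes within 10 kb of the 10 strongest unshared summits of each list, the 5 largest percentile shifts in each direction, and Hox genes with a summit in 1 list only. An item named by this rule is not reported here. Percentile shifts were taken among shared summits with a −log10 q of at least 20 in 1 list. Other genes were named from fixed gene lists or, where stated, after their values were seen. Poisson and Wilson intervals treat pileups and summits as independent counts. The comparison, its members and the lists were chosen with earlier results of these data known. Alternatives were other q thresholds, list lengths and matching rules.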

Additional observations from a re-analysis of the deposited data

How the results depend on the processing

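The alternatives gave 36 values, of which 15 stayed close to those reported and 21 moved. With a −log10 q of at least 10, shared HoxB summits outside the array were 5, and the shared percentages off chromosome 11 were 95.5 (of forward summits) and 57.8 (of inverted ones). With the 20000 strongest peaks of each list, the array held 1 forward and 0 inverted summits with 0 shared, HoxB outside it held 1 shared, and the percentages were 78.5 and 79.6. With lists of equal length, 74555 peaks, they were 73.7 and 74.0, where lists of one length give near-equal shares by construction. Any overlap gave 84.2 and 65.4. Reciprocal overlap of 50% gave 0 shared array peaks, since the inverted pair lies in 1 wide peak, and 71.5 and 54.7. Matching within 250 bp gave 82.5 and 62.5, and within 50 bp 75.3 and 56.7. With chromosome 11 kept, the forward percentage was 79.7. The array counts of 3, 2 and 2 shared stayed under the q threshold of 10 and under equal length, but not among the 20000 strongest. No paired analysis was possible because each genotype has 1 library and no test was made. The median forward pileup of 17 and its summits with pileups under 10 limit the precision of single positions.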

Other observations

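On chromosome Y the forward list held 284 summits with a median pileup of 8, and 242 of them had no inverted summit within 100 bp. The inverted list held 68 there, with a median pileup of 96.5, and 26 of them were unshared. The complete uninverted and inverted arrays had 160 and 81 peaks on this chromosome.

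On chromosome X the forward list had no summit between positions 75875236 and 76599002, a stretch of 724 kb, in which the inverted list had 11, the strongest with a pileup of 197. The complete uninverted array's list had 5 and the complete inverted array's list 6 in the same stretch. The stretch was picked out after its values were seen.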
